A study of Mus musculus with 6 samples.

Results

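Transcripts of 10 genes of MHC class I antigen presentation were compared in tumor-associated macrophages (TAMs) from Ptgs-competent and Ptgs-deficient melanomas. The genes were chosen by symbol from the deposited count table of 39179 genes: the heavy chains H2-K1 and H2-D1, the light chain B2m, the peptide transporter genes Tap1 and Tap2, the loading chaperone gene Tapbp, the immunoproteasome genes Psmb8, Psmb9 and Psmb10, and the transcriptional regulator Nlrc5. Each symbol matched 1 row, and all 10 rows were among the 8793 genes that passed the filter on low counts. TAMs (CD45+, CD11b+, F4/80+, NK1.1-, Ly6G- and negative or dim for Ly6C) had been sorted from subcutaneous tumors of a Braf V600E-driven melanoma cell line grown in C57BL/6 mice that were 8 weeks old. Cyclooxygenases COX-2 and COX-1 are the products of Ptgs2 and Ptgs1, and the implanted cells had either kept these genes or lost both by CRISPR/Cas9 editing, while the host mice and hence the sorted TAMs were wild-type for both genes in either group. There were 3 libraries per group, each made from a pool of tumors, and TAMs are called Ptgs-competent or Ptgs-deficient below after the tumor they came from. The tests below therefore measure the spread between pools, and in bulk RNA fewer cells of a type cannot be told apart from less RNA per cell.

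MHC class I molecules display peptides from inside a cell to CD8+ T cells, and they are also ligands of inhibitory receptors on NK cells. The proteasome cuts proteins into peptides, the TAP transporter carries these into the endoplasmic reticulum, and the chaperone tapasin, encoded by Tapbp, helps to load them onto a heavy chain that is held by beta-2 microglobulin. Interferon-gamma raises many of these genes, exchanges the catalytic subunits of the proteasome for the immunosubunits encoded by Psmb8, Psmb9 and Psmb10, and induces NLRC5, a coactivator at class I promoters.

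Of the 10 genes, 7 lie in the MHC on chromosome 17, within a span of 1351.6 kb from Tapbp to H2-D1 (GRCm38). Promoter sequence from RefSeq (GRCm38.p6; 250 bases before to 50 bases after each annotated start) was at hand for 8 of the 10 genes, all except Tap2 and Nlrc5. The heavy chain genes and B2m are shown because their promoters share a spaced pair of short motifs, the core of the X2 box (TGACG), a site of CREB and ATF factors, and the core of the Y box (ATTGG), a site of NF-Y, in capitals below with 20 bases between them. Each line reads 5′ to 3′ on the strand of its gene.
H2-K1, chr17:34000359-34000388, minus strand: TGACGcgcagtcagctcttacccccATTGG
H2-D1, chr17:35262993-35263022, plus strand: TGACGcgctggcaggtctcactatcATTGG
B2m, chr2:122147609-122147638, plus strand: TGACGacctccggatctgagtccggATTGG

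The TGACG motif began 41 bases before the more upstream of the annotated starts of H2-K1, 101 bases before the RefSeq start of H2-D1 and 78 bases before that of B2m. The H2-D1 stretch overlaps an exon annotated in GENCODE M21, whose H2-D1 begins further upstream than the RefSeq start, and the stretches of H2-K1 and B2m overlap none. Searched on both strands, this arrangement occurred in 31 of 32851 promoter windows (0.0944%), whereas TGACG alone occurred in 20.8% and ATTGG alone in 37.4%. None of the windows of Tap1, Tapbp, Psmb8, Psmb9 and Psmb10 held it. The search was set up after these sequences had been seen, and a match is a description of the letters only. Aligned at this module without gaps, H2-K1 and H2-D1 were identical at 127 of 140 bases (90.7%), and H2-K1 and B2m at 50 of 140 (35.7%).

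The H2-K1 promoter is shown further upstream, over the 150 bases before its start, because it also carries the enhancer motifs typical of classical class I genes. From left to right, the capitals mark overlapping matches to the NF-kappaB consensus, the core of an interferon-stimulated response element (searched as GAANNGAAA, here on the opposite strand), TGACG and ATTGG.
H2-K1, chr17:34000348-34000497, minus strand: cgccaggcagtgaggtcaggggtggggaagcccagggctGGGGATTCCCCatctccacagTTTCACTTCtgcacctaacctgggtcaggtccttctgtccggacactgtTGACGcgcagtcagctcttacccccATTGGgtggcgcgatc

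The NF-kappaB consensus occurred in 8.46% of all windows and GAANNGAAA in 7.52%. Among the class I presentation genes, H2-K1 and H2-D1 held both, B2m held the NF-kappaB consensus, and the windows of Tap1, Tapbp, Psmb8, Psmb9 and Psmb10 held neither. Psmb8 had a match to the gamma-activated site searched as TTCNNNGAA, at 97 bases before its start, a motif found in 8.30% of windows. Tap1 and Psmb9 are transcribed away from each other, with 225 bases between their RefSeq starts at positions 34187556 and 34187330 of chromosome 17, whereas the gene spans of GENCODE M21 given below overlap at these ends.

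Together, the class I presentation genes took a larger share of the counts in TAMs from Ptgs-deficient tumors, at 0.444%, 0.492% and 0.347% of all counts in Ptgs-competent TAMs (replicates 1, 2 and 3) and at 1.10%, 1.37% and 1.36% in Ptgs-deficient TAMs. Exact binomial 95% confidence intervals, which cover counting error only, ran from 0.341% to 0.352% for the lowest library and from 1.36% to 1.38% for the highest, so that counting error was far smaller than the gap between groups. The fitted log2 fold change (log2 FC, Ptgs-deficient over Ptgs-competent) was positive for 9 of the 10 genes, with a median of 1.61 beside 0.018 over all tested genes. For 8 genes, all except Tapbp and Nlrc5, the lowest Ptgs-deficient library lay above the highest Ptgs-competent library, a pattern met by 11% of all tested genes.

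With edgeR's quasi-likelihood model, 0 of the 10 genes were called at an FDR of 0.05 and a log2 FC of 1.5, the study's thresholds, where 0.159% of all tested genes were called higher. The same 8 genes were higher at an unadjusted p under 0.05, beside 5.00% of all tested genes. The edgeR likelihood ratio test called 5 of the 10 higher, H2-K1, H2-D1, B2m, Tap1 and Tap2, against 1.55% of all genes. The DESeq2 Wald test called 4, against 2.02%, and left out H2-D1 for its log2 FC of 1.465, under the fold threshold, at an adjusted p of 2.55e-06. Whether these genes were called thus depended on the test used.

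**Figure D1:**
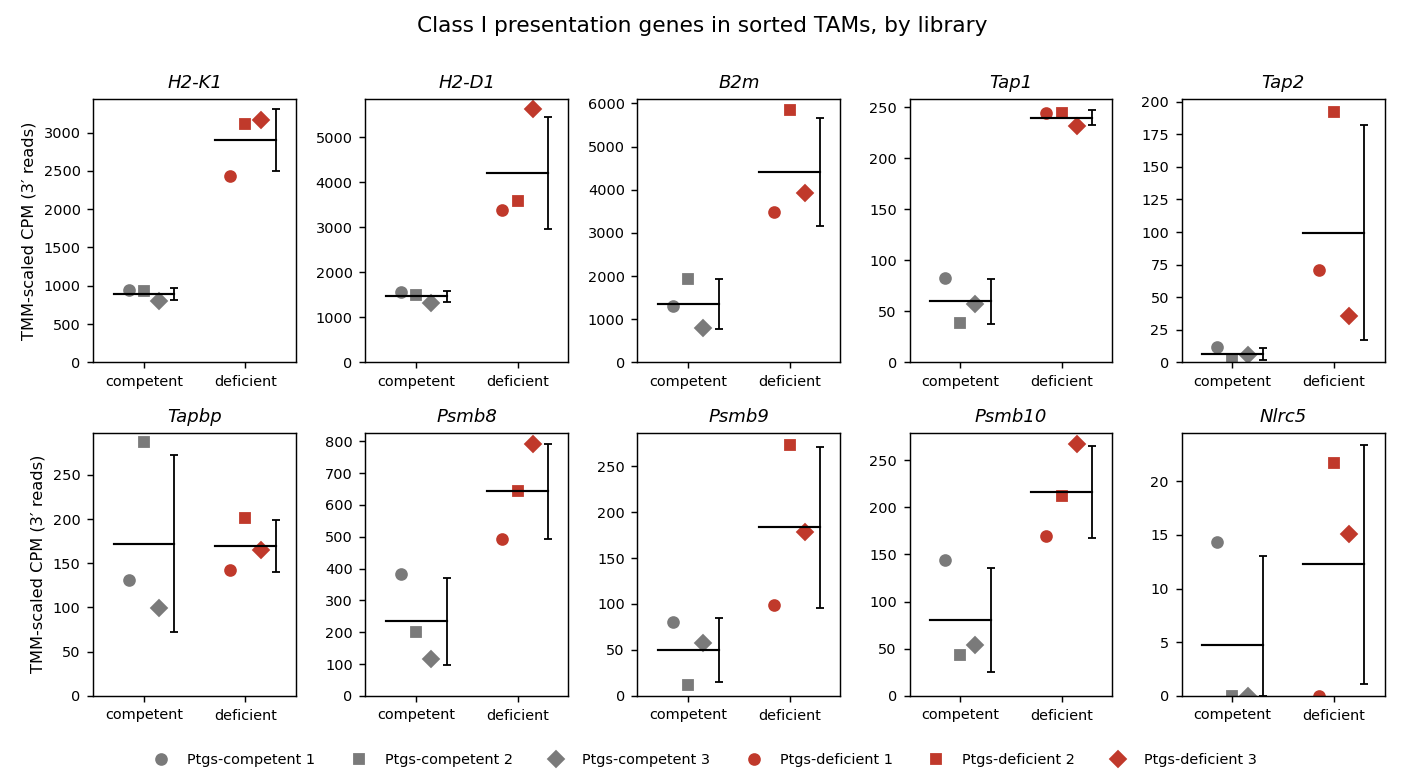
TMM-scaled CPM (3′ reads per library, scaled for depth) for each class I presentation gene in the 3 Ptgs-competent (gray) and 3 Ptgs-deficient (red) libraries. Symbols mark replicate numbers, horizontal lines the group mean and bars the SD (drawn no lower than 0). The groups are apart for 8 genes and overlap for Tapbp and Nlrc5.

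Among Ptgs-competent TAMs, the heavy chain genes had the tightest values. Levels are given as counts-per-million (CPM) values after TMM scaling, which are 3′ end reads scaled for depth and do not depend on transcript length. H2-K1 (ENSMUSG00000061232; chromosome 17, 33996017 to 34000347) stood at 947, 926 and 808 CPM in Ptgs-competent TAMs and at 2429.5, 3107 and 3165 CPM in Ptgs-deficient TAMs. Every Ptgs-deficient library was above every Ptgs-competent one, and the Ptgs-competent libraries lay close together. The group means were 894 ± 75.1 and 2900.4 ± 409 CPM (SD, n = 3 each), and the log2 FC was 1.70 ± 0.289 (SE), with an edgeR quasi-likelihood adjusted p of 0.05998, just above the threshold, 0.00174 by the likelihood ratio test and 5.39e-12 by DESeq2. By p value H2-K1 ranked 22 among all tested genes.

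H2-D1 (ENSMUSG00000073411; chromosome 17, 35262730 to 35267499) was at 1570.4, 1506.5 and 1327 CPM in Ptgs-competent TAMs and at 3392, 3577.5 and 5624 CPM in Ptgs-deficient TAMs. Ptgs-deficient replicate 3 was the highest, and the groups did not overlap. The log2 FC was 1.52 ± 0.320 (SE), with an edgeR quasi-likelihood adjusted p of 0.107 and a likelihood ratio adjusted p of 0.0120. The ratio of H2-K1 to H2-D1 counts, chosen after the values were seen, was 0.603, 0.615 and 0.609 in Ptgs-competent TAMs and 0.716, 0.868 and 0.563 in Ptgs-deficient TAMs. It was nearly the same in Ptgs-competent TAMs and lay on both sides of that value in Ptgs-deficient TAMs. The heavy chains are paralogs, and reads between them may have been lost or shared. Of the 50-base words in the last 500 bases of the annotated coding transcripts, 9.60% of those of H2-K1 and 8.92% of those of H2-D1 also occurred in transcripts of other genes. For H2-K1, 102 of the 127 shared words occurred in H2-D1. For H2-D1, 30 of the 76 shared words occurred in H2-K1, and others occurred in genes such as Adsl and Kcnk4.

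B2m (ENSMUSG00000060802; chromosome 2, 122147686 to 122153083), the light chain common to all classical class I molecules, stood at 1318, 1935 and 790.5 CPM in Ptgs-competent TAMs and at 3474.5, 5843 and 3927 CPM in Ptgs-deficient TAMs. The lowest Ptgs-deficient value exceeded the highest Ptgs-competent value. Its log2 FC came to 1.71 ± 0.396 (SE), close to those of the heavy chains, with an edgeR quasi-likelihood adjusted p of 0.148, a likelihood ratio adjusted p of 0.0148 and a DESeq2 adjusted p of 1.24e-04. Counts of B2m per count of H2-K1, also chosen after the values were seen, were 1.39, 2.09 and 0.979 in Ptgs-competent TAMs and 1.43, 1.88 and 1.24 in Ptgs-deficient TAMs, and these ranges overlapped. None of the 50-base words of B2m occurred in another gene.

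The genes of the TAP transporter, whose products form a heterodimer, showed the largest fitted differences of the 10 in the TMM-scaled fit. Tap1 (ENSMUSG00000037321; chromosome 17, 34187553 to 34197225) was at 83.2, 38.9 and 57.1 CPM in Ptgs-competent TAMs and at 244, 245 and 231 CPM in Ptgs-deficient TAMs. The Ptgs-deficient values were almost equal, at 240.0 ± 7.47 CPM, against 59.7 ± 22.3 CPM (SD, n = 3 each). For Tap1 the log2 FC was 2.01 ± 0.432 (SE), with an edgeR quasi-likelihood adjusted p of 0.112 and a likelihood ratio adjusted p of 0.0185.

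Tap2 (ENSMUSG00000024339; chromosome 17, 34203527 to 34216321) was scarce in Ptgs-competent TAMs, with 74, 16 and 25 counts (11.8, 2.63 and 5.39 CPM), and had 389, 1615 and 171 counts (71.0, 192 and 35.4 CPM) in Ptgs-deficient TAMs. The groups did not overlap, but Ptgs-deficient replicate 2 was far above the other libraries of its group. Fitted to these counts, the log2 FC was 3.91 ± 1.01 (SE), with an edgeR quasi-likelihood adjusted p of 0.198 and a likelihood ratio adjusted p of 0.0206. Without Ptgs-deficient replicate 2 it was 3.003, with an unadjusted p of 0.107 (edgeR), and without Ptgs-competent replicate 1 it was 4.64. By limma voom with quality weights it was 3.83, with an unadjusted p of 0.11. Counts of Tap1 per count of Tap2, a ratio chosen after the values were seen, were 7.01, 14.4 and 10.4 in Ptgs-competent TAMs and 3.43, 1.27 and 6.52 in Ptgs-deficient TAMs. The ratio was lower in every Ptgs-deficient library than in any Ptgs-competent library.

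Tapbp (ENSMUSG00000024308; chromosome 17, 33915899 to 33929292) did not follow the transporter genes it cooperates with. It stood at 131, 287 and 99.2 CPM in Ptgs-competent TAMs and at 142, 201 and 165 CPM in Ptgs-deficient TAMs. The Ptgs-deficient values all lay within the range of the Ptgs-competent values, and Ptgs-competent replicate 2 was the highest of the 6. The log2 FC was -0.03 ± 0.466 (SE), with an edgeR quasi-likelihood adjusted p of 0.9995, and its sign turned under several settings, from -0.70 with libraries scaled to macrophage markers to 0.56 without Ptgs-competent replicate 2. Whether Tapbp differs from Tap1 or Tap2 in its response was not tested.

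**Figure D2:**
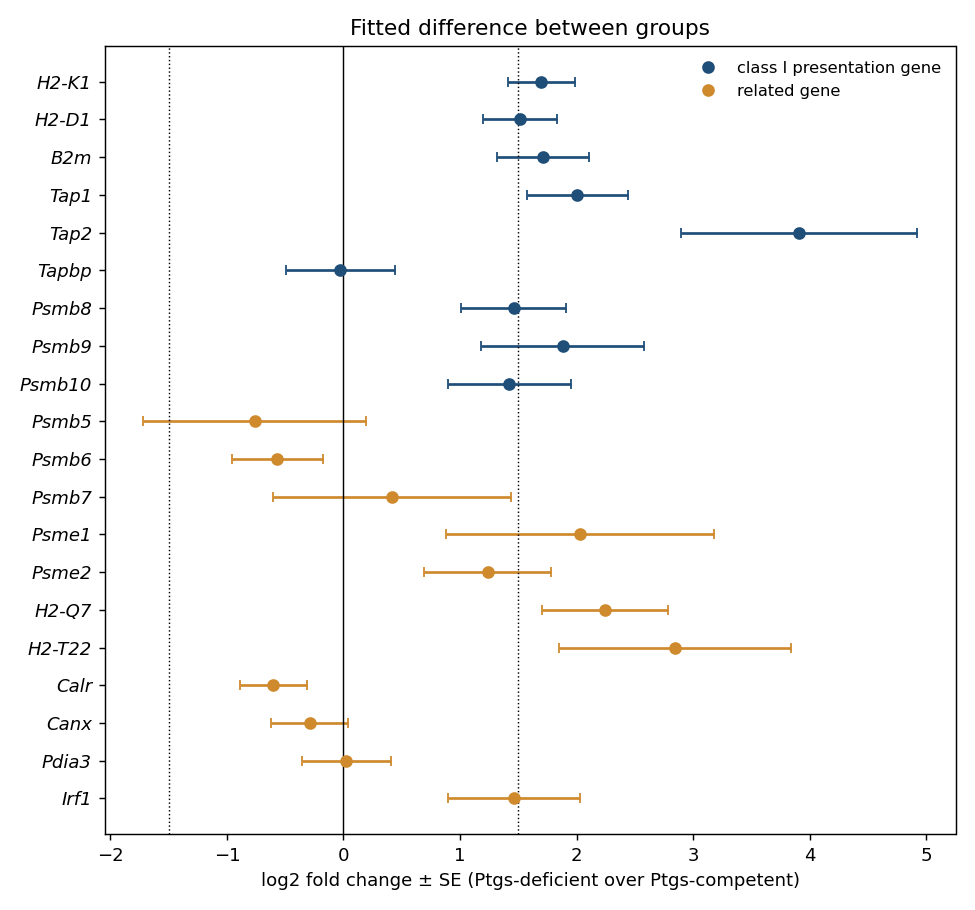
Fitted log2 FC (Ptgs-deficient over Ptgs-competent) with its SE for 9 class I presentation genes (blue) and for related genes (orange). The solid line marks no difference and the dotted lines the fold threshold of 1.5 on the log2 scale. Nlrc5 is left out because of its SE of 2.94. Tap2 lies farthest to the right at 3.91, and Tapbp lies at -0.03.

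The immunoproteasome genes encode the catalytic subunits beta 5i (Psmb8), beta 1i (Psmb9) and beta 2i (Psmb10). Psmb8 (ENSMUSG00000024338; chromosome 17, 34197721 to 34201454) was at 384, 202 and 115 CPM in Ptgs-competent TAMs and at 494, 643 and 792 CPM in Ptgs-deficient TAMs. Psmb9 (ENSMUSG00000096727; chromosome 17, 34181987 to 34187764) was at 80.2, 11.7 and 57.6 CPM against 98.3, 273 and 178 CPM. Psmb10 (ENSMUSG00000031897; chromosome 8, 105935735 to 105938444) was at 144, 43.2 and 53.9 CPM against 169, 212 and 267 CPM. For all 3 genes the groups were apart, and in each the gap was set by Ptgs-competent replicate 1, the highest of its group, and Ptgs-deficient replicate 1, the lowest of its group.

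The log2 FCs were 1.46 ± 0.450, 1.88 ± 0.702 and 1.42 ± 0.530 (SE) for Psmb8, Psmb9 and Psmb10, with edgeR quasi-likelihood adjusted p of 0.292, 0.384 and 0.382. The likelihood ratio test called none of the 3 (adjusted p of 0.144, 0.260 and 0.335), and DESeq2 gave Psmb8 an adjusted p of 0.0484 at a fold under the threshold. By limma voom with quality weights Psmb8 was called, at a log2 FC of 1.54 and an adjusted p of 0.0453. Without Ptgs-competent replicate 1 the log2 FC of Psmb10 was 2.16. Without Ptgs-deficient replicate 2, the edgeR unadjusted p was 0.115 for Psmb9 and 0.0509 for Psmb10. For Psmb10 it was also above 0.05 without Ptgs-competent replicate 2 (0.0682) and without Ptgs-deficient replicate 3 (0.0841).

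Immunosubunits take the place of the constitutive subunits encoded by Psmb5, Psmb6 and Psmb7, and the counts of each were therefore compared within a library. The constitutive genes had log2 FCs of -0.76 ± 0.955, -0.57 ± 0.394 and 0.41 ± 1.02 (SE), all with groups that overlapped. Counts of Psmb9 per count of Psmb6 were 0.180, 0.0661 and 0.164 in Ptgs-competent TAMs and 0.449, 1.35 and 0.753 in Ptgs-deficient TAMs. This ratio was higher in all Ptgs-deficient libraries, by 2.62 on the log2 scale, with an exact permutation p of 0.1 (two-sided, n = 3 each; 0.1 is the smallest that 3 against 3 libraries allow, and 0.3 after adjustment over 3 ratios).

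Psmb8 per Psmb5 was 45.9, 2.39 and 1.298 in Ptgs-competent TAMs against 10.9, 22.1 and 24.2, and the ranges overlapped because Ptgs-competent replicate 1 had only 52 counts of Psmb5 (exact permutation p of 0.4). Psmb10 per Psmb7 was 5.76, 1.28 and 1.64 against 11.4, 2.86 and 8.04, again with overlapping ranges (exact permutation p of 0.2). Of the ratios of immunosubunit to constitutive subunit, that of Psmb9 to Psmb6 was therefore the only one in which the groups were apart in these 6 libraries.

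**Figure D3:**
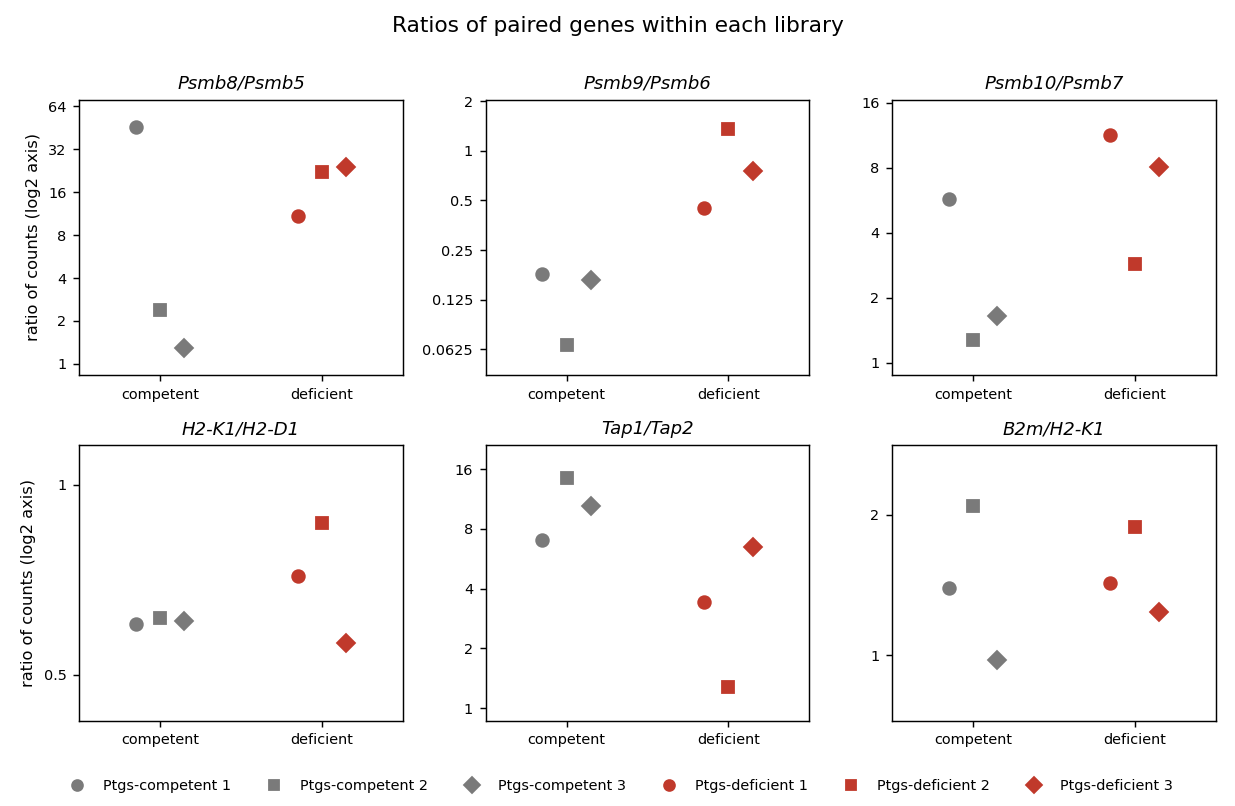
Ratios of counts within each library on a log2 axis, for the immunosubunits over their constitutive counterparts (upper row) and for other pairs of class I presentation genes (lower row). Gray symbols are Ptgs-competent and red symbols Ptgs-deficient libraries. Psmb9/Psmb6 is higher and Tap1/Tap2 lower in every Ptgs-deficient library, and the other ratios overlap.

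Nlrc5 (ENSMUSG00000074151; chromosome 8, 94434356 to 94527272) was detected in some libraries only. It had 90, 0 and 0 counts in Ptgs-competent TAMs and 0, 182 and 73 in Ptgs-deficient TAMs. Each group held libraries with none, and a count of 0 allows a level of up to 0.490 and 0.677 CPM in Ptgs-competent replicates 2 and 3 and up to 0.571 CPM in Ptgs-deficient replicate 1. The log2 FC was 1.35 ± 2.94 (SE), with an edgeR quasi-likelihood adjusted p of 0.9995, and the spread between libraries exceeded the difference between groups. In Ptgs-deficient replicate 1, where Nlrc5 had no count, H2-K1, B2m and Tap1 stood at 2429.5, 3474.5 and 244 CPM, above every Ptgs-competent library. Whether the levels of Nlrc5 and of these genes are related was not tested.

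Further genes of the pathway were described from lists of related genes, of which 48 of 60 in the table passed the filter. With the quasi-likelihood test of edgeR, 0 of the 48 were called, 8 were higher (against 5.00% of all tested genes) and 0 lower at an unadjusted p under 0.05, and their median log2 FC was 0.25, with 31 higher and 17 lower. H2-T24, Lnpep and Ptpn2 were at or near 0 in Ptgs-competent TAMs and passed the filter through the other group, which fixed their direction. The likelihood ratio test called 2 of the 48 (1.55% of all tested genes), H2-Q7 and Lnpep, which encodes an endosomal aminopeptidase, and DESeq2 called 3 (2.02% of all genes), H2-Q7, H2-T22 and Ptpn2, which encodes a phosphatase that restrains Janus kinase signaling.

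Of 14 other class I heavy chain genes, the class Ib genes, 4 were tested and 0 were called by the quasi-likelihood test, and H2-Q7 and H2-T22 were higher at an unadjusted p under 0.05 (5.00% over all tested genes) with groups that were apart (11% over all tested genes). H2-T24 was too, but its direction was fixed by the filter, and for H2-M3 the groups overlapped. H2-Q7 had 335, 113 and 293 counts in Ptgs-competent TAMs and 884, 2063 and 1124 in Ptgs-deficient TAMs, or 45.0 ± 23.5 and 213 ± 45.4 CPM (SD, n = 3 each), with a log2 FC of 2.24 ± 0.543 (SE) and 0.165 as its adjusted p (edgeR). H2-T22 had 62, 55 and 44 counts against 152, 776 and 406, and H2-T24 had 0 counts in each Ptgs-competent library against 41, 78 and 10. H2-M3, which presents formylated peptides, had 69, 277 and 0 counts against 164, 795 and 217. These genes are close paralogs, so that their counts share the uncertainty of H2-K1 and H2-D1, and 4 of the 14 had 0 counts in all libraries.

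Among class I-like partners of beta-2 microglobulin, Fcgrt, the neonatal Fc receptor, had 546, 2639 and 479 counts in Ptgs-competent TAMs and 2536, 6411 and 3011 in Ptgs-deficient TAMs. Its log2 FC was 1.57 ± 0.587 (SE), with 0.388 as its adjusted p (edgeR), and its CPM did not overlap between groups. Cd1d1 and Hfe were undetected in Ptgs-competent replicate 3 and overlapped between groups, at log2 FCs of -0.56 ± 2.43 and 1.04 ± 1.65 (SE).

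The remaining chaperones of the peptide-loading complex had log2 FCs of 0.03 or lower. Calr, which encodes calreticulin, was at 802 ± 46.1 CPM in Ptgs-competent and at 528 ± 78.1 CPM in Ptgs-deficient TAMs (SD, n = 3 each). All its Ptgs-deficient values were lower, which made it the only gene (1 of 48 related genes tested) with this pattern, against 8.01% of all tested genes, while the groups were apart in the other direction for 10 of the 48 (11% of all tested genes). Those 10 include H2-T24, Lnpep and Ptpn2, whose direction was fixed by the filter. For Calr the log2 FC was -0.60 ± 0.288 (SE), with 0.648 as the adjusted p (edgeR). Canx (calnexin) and Pdia3 (ERp57) had log2 FCs of -0.29 ± 0.331 and 0.03 ± 0.379 (SE). Erap1, the aminopeptidase that trims peptides for class I, had 2, 258 and 0 counts in the Ptgs-competent and 0, 259 and 64 in Ptgs-deficient TAMs, and Lnpep had 0 in each of the former and 269, 38 and 18 in the latter. Of the 10 genes of this list, 1 was higher at an unadjusted p under 0.05 (edgeR; 5.00% over all tested genes), and this was Lnpep, whose direction was fixed by the filter. For the list, the median log2 FC was 0.02.

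The proteasome activator PA28, which is also inducible by interferon-gamma, is built from the products of Psme1 and Psme2. Psme1 had 370, 323 and 1 counts in Ptgs-competent TAMs and 753, 1427 and 733 in Ptgs-deficient TAMs, and no CPM value of one group reached the other. Its log2 FC was 2.03 ± 1.15 (SE), with 0.805 as its adjusted p (edgeR). Psme2 had 1470, 353 and 413 counts against 1013, 2817 and 1829, with overlap through Ptgs-competent replicate 1, and a log2 FC of 1.24 ± 0.548 (SE; edgeR adjusted p of 0.554). The assembly factor gene Pomp was at -0.23 ± 0.306 (SE) on the same scale.

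Transcription factors that act on class I promoters varied. Irf1, an interferon-induced activator, had 328, 1093 and 276 counts in Ptgs-competent TAMs and 2044, 2321 and 744 in Ptgs-deficient TAMs. The groups overlapped because Ptgs-competent replicate 2 was above Ptgs-deficient replicate 3 in CPM, and the log2 FC was 1.46 ± 0.564 (SE), with 0.412 as its adjusted p (edgeR). Rfx5, a subunit of the RFX complex that NLRC5 needs at promoters, had 52, 217 and 0 counts against 0 in each Ptgs-deficient library and was not tested. Ciita, the class II counterpart of Nlrc5, had 226, 0 and 172 counts against 298, 59 and 0. Of the 12 tested genes of this list, 7 were higher and 5 lower, with a median log2 FC of 0.10.

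Of 11 genes of interferon receptors, kinases and feedback inhibitors, 9 had a positive log2 FC, with a median of 0.92. Of these 11 genes, 1 was higher at an unadjusted p under 0.05 (edgeR; 5.00% over all tested genes), and this was Ptpn2, with 5, 0 and 0 counts in Ptgs-competent TAMs and 191, 239 and 219 in Ptgs-deficient TAMs. The direction of Ptpn2 was fixed by the filter. Socs3, a feedback inhibitor of cytokine receptors, was at 232 ± 38.8 and 364 ± 51.6 CPM (SD, n = 3 each) without overlap, a log2 FC of 0.65 ± 0.323 (SE; edgeR adjusted p of 0.690). The receptor chain genes Ifngr1 and Ifngr2 overlapped between groups, at log2 FCs of -0.13 ± 0.496 and 0.93 ± 1.02 (SE).

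The values of single libraries within a group did not follow one order. In the Ptgs-competent group, replicate 1 was the highest for 8 of the 10 presentation genes and replicate 2 for the other two, B2m and Tapbp. In the Ptgs-deficient group, replicate 2 was the highest for 6 genes and replicate 3 for 4. The presentation genes varied less between libraries than genes in general, with a median coefficient of variation of 58.5% in the Ptgs-competent and 25.8% in the Ptgs-deficient group, against 81.4% and 55.9% over all tested genes, which include many of lower counts.

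**Figure D4:**
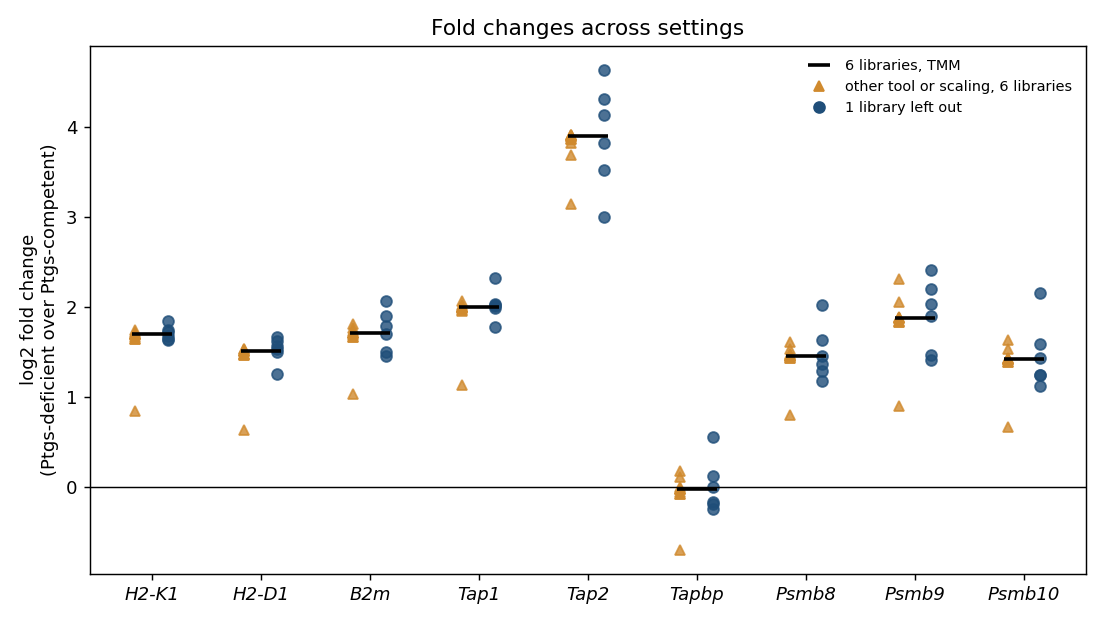
Log2 FCs (Ptgs-deficient over Ptgs-competent) of 9 class I presentation genes under other settings. Black bars show the 6 libraries with TMM scaling, orange triangles other tools, filters or scalings, and blue circles fits with 1 library left out. All values of the 8 genes other than Tapbp are above 0, and the lowest triangle of each is the scaling to macrophage markers. Nlrc5 is left out because its range reaches 9.18.

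Library totals ran from 4431184 to 8760679 counts and overlapped between groups. All 13 macrophage markers, among them Adgre1 (F4/80), Itgam (CD11b) and Ptprc (CD45), had counts in every library. Of the 13, 10 had a positive log2 FC, with a median of 0.57, 6 were higher without overlap (11% over all tested genes) and 5 were higher at an unadjusted p under 0.05 (5.00% over all tested genes), among them Adgre1 and Itgam at log2 FCs of 1.11 and 1.16. The summed level of the markers, led by Lyz2 and C1qa, was 7907 CPM in Ptgs-competent replicate 3 against 18746 and 19711 CPM in the other two of its group and 22663 to 27328 CPM in Ptgs-deficient TAMs, so that this library stood apart. Without it, the log2 FCs of the presentation genes were 1.68 for H2-K1, 2.02 for Tap1 and 1.18 for Psmb8, and the same number, 8 of 10, were higher at an unadjusted p under 0.05 (edgeR). With libraries scaled to the macrophage markers in place of TMM, a setting chosen after seeing the data, the log2 FCs were smaller, at 0.84 for H2-K1, 1.03 for B2m, 1.13 for Tap1 and 0.79 for Psmb8. This scaling changes all genes of a library by the same factor, and it took the median of all tested genes to -0.82. Values relative to that median (1.66 for H2-K1) are therefore no separate evidence. Under that scaling, 2 of the 10 genes, B2m and Tap2, were higher at an unadjusted p under 0.05.

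Markers of other cells also differed between groups. Mesenchymal markers, led by Sparc and Col1a1, summed to 284 to 994 CPM in the Ptgs-competent and to 42.7 to 68.8 CPM in Ptgs-deficient TAMs, with 2 of the 12 (Col5a2 and Lum) at 0 throughout. NK cell markers summed to 2.07 to 2.37 against 16.8 to 31.6 CPM, through Klrk1 and Gzma, whereas Ncr1, Klrd1, Prf1 and Gzmb were at 0 in all libraries. Klrk1 had 0 counts in each Ptgs-competent library against 144, 36 and 78. It passed the filter through the Ptgs-deficient group, which fixed its direction. Gzma had 7, 10 and 6 counts against 29, 171 and 1, with overlap. The other detected markers were named after their values were seen. Klrb1c and Nkg7 had lower means in Ptgs-deficient TAMs (0.324 against 0.267 and 0.447 against 0.228 CPM), and Eomes a higher one (0.0719 against 0.159 CPM). Neutrophil markers, led by S100a8 and S100a9, summed to 619.5 to 724 against 452 to 532 CPM (Ly6g at 0). Within that list 2 of the 6 tested markers, named after their values were seen, had higher means in Ptgs-deficient TAMs, Retnlg at 139 against 32.1 CPM without overlap (log2 FC of 2.11) and Csf3r at 43.3 against 21.0 CPM with overlap (log2 FC of 1.04). Endothelial markers, led by Pecam1, summed to 92.9 to 197 against 22.3 to 65.1 CPM (Cdh5, Tek and Cldn5 at 0). Of the melanoma cell markers 7 of 8 were at 0 in all libraries, and Mitf, the remaining one, was at 0 to 1.91 CPM in Ptgs-competent and at 10.6 to 44.3 CPM in Ptgs-deficient TAMs. Which cells the Mitf counts came from was not tested. Also at 0 throughout were 6 of 7 T cell markers (all but Cd3d), 3 of 4 B cell markers (all but Cd79b) and 4 of 8 dendritic cell markers (Zbtb46, Xcr1, Itgae and Ccr7). The row Gm26924 took 6.83% to 11.6% of counts in the Ptgs-competent and 1.82% to 4.63% in Ptgs-deficient TAMs. Without that row the number of presentation genes higher at an unadjusted p under 0.05 was 8, as before. The part of these markers, those of macrophages included, in the differences of the class I genes was not tested.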

How the data were processed

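The authors prepared libraries from sorted TAMs with the QuantSeq 3′ mRNA kit (FWD), trimmed reads with BBDUK, fqtrim and cutadapt, aligned them to GRCm38 with STAR and counted them per Ensembl gene with featureCounts. The deposited values are raw read counts per gene, without normalization. Handling of reads with several alignments and molecular identifiers are not given in the sources used here, so intervals cover counting error only.

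The analysis used edgeR 4.0.16 in R 4.3.3, with filterByExpr (minimum count 10, minimum total 15), TMM scaling and the two-sided quasi-likelihood test on 8793 genes, with Benjamini-Hochberg adjustment. Genes were called at an adjusted p (FDR) of 0.05 and a log2 fold change of 1.5. The SE was derived from the F statistic as |log2 FC| over its square root. The study's methods state an edgeR GLM test without its form; the likelihood ratio test, DESeq2 1.42.0 and limma 3.58.1 (voom) were alternatives. All 6 libraries entered the fit, with no covariate. Ratios used counts plus 0.5 and an exact permutation test of the log2 values. A count of 0 was read as up to 3 counts, set against the library total without TMM scaling. The code was tested on simulated data.

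The 10 genes, the lists of related genes and the markers were chosen with earlier results of these data known, and list counts are descriptions. Named genes are the 10, a fixed set of partners (among them Psmb5, Psmb6, Psmb7, Psme1, Psme2, Irf1, Rfx5, Ciita, Erap1, Calr, Canx and Pdia3) and, per list, up to 4 with the smallest p; for other cell types, the 2 markers of highest mean CPM and those at 0. A named partner is not reported here. Of 144 listed symbols, 143 were matched. Gene positions are from GENCODE M21 (GRCm38) and count from 1.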

Additional observations from a re-analysis of the deposited data

How the results depend on the processing

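Scaling by RLE or TMMwsp, a stricter filter and leaving out Gm26924 left the count of class I presentation genes called at 0. It was 1 with library totals alone (H2-K1, adjusted p of 0.0391), 5 without a filter, 5 by the likelihood ratio test, 4 by DESeq2 and 4 by voom (H2-K1, H2-D1, B2m and Psmb8), where all genes called were 21, 252, 241, 328 and 123 against 19. Scaling to macrophage markers, chosen after seeing the data, gave 1 call over all genes and 0 among the 10. Members higher at an unadjusted p under 0.05 numbered 8, 7 by voom (all but Tap2), 2 with scaling to macrophage markers, and 5 to 8 with a library left out, the 5 without Ptgs-deficient replicate 2. Among related genes called, the count was 0 by the quasi-likelihood test, 3 without a filter, 2 by the likelihood ratio test, 3 by DESeq2 and 1 by voom. Related genes higher at an unadjusted p under 0.05 numbered 8, 3 with scaling to macrophage markers, and 4 to 10 with a library left out (4 without Ptgs-deficient replicate 2 and 5 without replicate 3). That number was 10 without a filter, 7 by DESeq2, 7 by voom, 6 with the stricter filter and 6 with the replicate block. With a library left out, calls over all genes ranged from 0 (without Ptgs-competent replicate 1) to 25. Calls over all genes were 11 without Ptgs-competent replicate 2 and 2, 4 and 3 without Ptgs-deficient replicates 1, 2 and 3. The log2 fold change of Tapbp turned positive under voom (0.17), with the replicate block (0.11) and in fits that left out a library, which ranged from -0.24 to 0.56. The median of all genes shifted to 0.39 under voom and 0.26 with the block. The cause of these changes was not tested.

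The labels number the replicates in both groups. Deviations of same-numbered libraries from their group means correlated at -0.0488, -0.0224 and -0.0218 across genes, so the numbers were not taken to pair the libraries. With the replicate block, 77 genes were called, 0 of them among the 10. No library correlated with its own number above 0.1. The ratio differences were the same with a paired difference (1.78, 2.62 and 1.48 for Psmb8/Psmb5, Psmb9/Psmb6 and Psmb10/Psmb7), and with a library left out they ranged from 0.78 to 3.35, 2.16 to 3.01 and 1.06 to 2.14.

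Genes with libraries at or near 0 counts, among them Nlrc5, H2-T24, Erap1, Psme1 and Ptpn2, have uncertain fold changes, and the cause of these low counts was not tested. A count of 0 allows up to 0.342 to 0.677 CPM without TMM scaling, depending on the library.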
